A study of Chlorella sp. with 12 samples.

Results

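The 114 histone unigenes of *Chlorella* sp. TLD6B, a green microalga isolated from desert soil, were taken from an assembly of 155503 unigenes (clustered transcript sequences). A unigene was included if the deposited annotation gave it the KEGG orthology (KO) ID of a histone: 32 carried K11251 (H2A), 23 K11252 (H2B), 42 K11253 (H3), 15 K11254 (H4) and 2 K11275 (H1). RNA was sequenced in 12 libraries from 6 groups, with 2 libraries in each group. CK0 was untreated at day 0 and CK18 was untreated at day 18. Nacl1 and Nacl2 had grown for 18 days with 0.1 M and 0.8 M NaCl (salt stress), and PEG1 and PEG2 for 18 days with 0.05 g/mL and 0.1 g/mL PEG-6000, a polymer that withdraws water and was used to impose drought stress. All groups were the same wild strain, TLD6B, in the same mineral medium, and the study calls the 2 libraries of a group biological replicates.

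Histones package nuclear DNA. H2A, H2B, H3 and H4 form the core of the nucleosome, around which the DNA is wound, and H1 binds the linker DNA between nucleosomes and promotes compaction. Most core histone is made while DNA is being copied, whereas variants such as H2A.Z and H3.3 can be built into chromatin at any time, by exchange complexes and dedicated chaperones.

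The members were an uneven set. Their lengths ran from 232 to 5765 bp with a median of 832 bp, against 1297 bp for all unigenes, and 19 were longer than 3000 bp. Of the 112 core histone members, 90 carried the PFAM core histone domain. By mean FPKM (mapped fragments, divided by unigene length and by the mapped total of the library), 41 members reached 1, 15 reached 10, and 2 were listed at 0 in every library. A few unigenes carried most of the signal: the 26 most abundant members (up to 6 per KO ID) held 90.1% of the summed FPKM of H4, 94.4% for H2A, 98.0% for H2B, 99.1% for H3 and 100% for H1. The best NR database hit was a green alga for 63 members, 48 of them *Chlorella*. No unigene carried the KO ID of CENPA, the centromeric H3 variant, but 5 H3 members had a best hit to CSE4, the yeast name of this variant, 4 of them in NR (a predicted protein of the grass *Setaria*) and 1 in SwissProt. Single unigenes share reads with near-identical copies, so the sum over each KO ID was used as the main level of each histone. The FPKM of very short unigenes depend strongly on the length correction, and the sum does not remove this.

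Each histone was tested as a KO sum with limma, with Benjamini-Hochberg adjustment over all KO sums, and "called" means an adjusted p under 0.05 with a log2 fold change of 1 or more in either direction. The fold changes were taken after scaling, which places the median KO sum near 0 in every comparison. The choice of scale mattered: in FPKM as deposited, the median of all KO sums stood at 0.76 for Nacl1 vs CK18, at 0.92 for Nacl2 vs CK18, at 0.62 for PEG1 vs CK18, at 0.06 for PEG2 vs CK18 and at -1.002 for CK18 vs CK0 on the log2 scale. KO sums called in Nacl2 vs CK18 were 790 higher and 682 lower after scaling, and 1423 higher and 201 lower in FPKM as deposited. A fold change of a KO sum therefore reads as a change relative to the typical KO sum, and the deposited FPKM of each library is given beside it. Single unigenes were scaled by factors computed over unigenes, under which the median KO sum stood at 0.28 in Nacl1 vs CK18, 0.68 in Nacl2 vs CK18, 0.11 in PEG1 vs CK18 and -0.19 in CK18 vs CK0, so a fold change of a unigene is not on the scale of the sum it belongs to. In bulk RNA, a change in the share of cells in a given state and a change per cell cannot be told apart. Comparisons with CK18 share its 2 libraries, so they are not independent of each other.

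The linker histone H1 gave the clearest difference among the 5 histones. In deposited FPKM both Nacl2 libraries were below the other 10. The summed FPKM of H1 were 297 and 333 in CK18, 233 and 277 in Nacl1, and 115 and 110.3 in Nacl2. The 3 groups did not overlap and were ordered by the salt dose. Relative to the typical KO sum, H1 fell by 2.45 in Nacl2 vs CK18 on the log2 scale (SE 0.15, adjusted p = 1.39e-05, limma) and by 1.45 in Nacl2 vs Nacl1 (SE 0.15, adjusted p = 0.000314). In FPKM as deposited, H1 was also called in both comparisons, at -1.48 and -1.18. With the factors of the unigenes it was called in Nacl2 vs CK18 (-1.72) but not in Nacl2 vs Nacl1 (-0.91). For Nacl1 vs CK18 the log2 fold change was -1.01 (SE 0.15, adjusted p = 0.00168), on the edge of the fold threshold. It was -0.30 in deposited FPKM and -0.81 with the factors of the unigenes, not called in either, and the call was lost without CK18 replicate 2 (-0.93) and without Nacl1 replicate 1 (-0.85).

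H1 was also low at the lower PEG dose but not at the higher one. The sums were 218 and 199 in PEG1 and 294 and 297 in PEG2. Both PEG1 libraries lay below both CK18 libraries and both PEG2 libraries, while PEG2 touched the range of CK18. The log2 fold change of H1 was -1.20 in PEG1 vs CK18 (SE 0.18, adjusted p = 0.00537) and 1.051 in PEG2 vs PEG1 (SE 0.18, adjusted p = 0.0152). In deposited FPKM these were -0.59 and 0.50, neither called, and with the factors of the unigenes -1.11, called, and 0.94, not called. The first call was lost without PEG1 replicate 2 (-1.11), and the second without either PEG1 library (0.97 to 1.18). For PEG2 vs CK18, H1 stood at -0.15 (SE 0.18, adjusted p = 0.698). With age, H1 rose by 1.27 in CK18 vs CK0 (SE 0.26, adjusted p = 0.000741), from 261 and 242 in CK0, and this call held without each library in turn. On the deposited scale the difference was 0.32 and not called. One unigene, Cluster-31803.43584, held between 99.1% and 100% of the H1 sum in each library. It is 1025 bp long and its best SwissProt hit was histone H1-I of *Volvox*, a colonial green alga. Its best NR hit was histone H1 of a land plant, *Zea mays*. The other H1 unigene, Cluster-23990.0, had at most 0.97 FPKM.

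**Figure D1:**
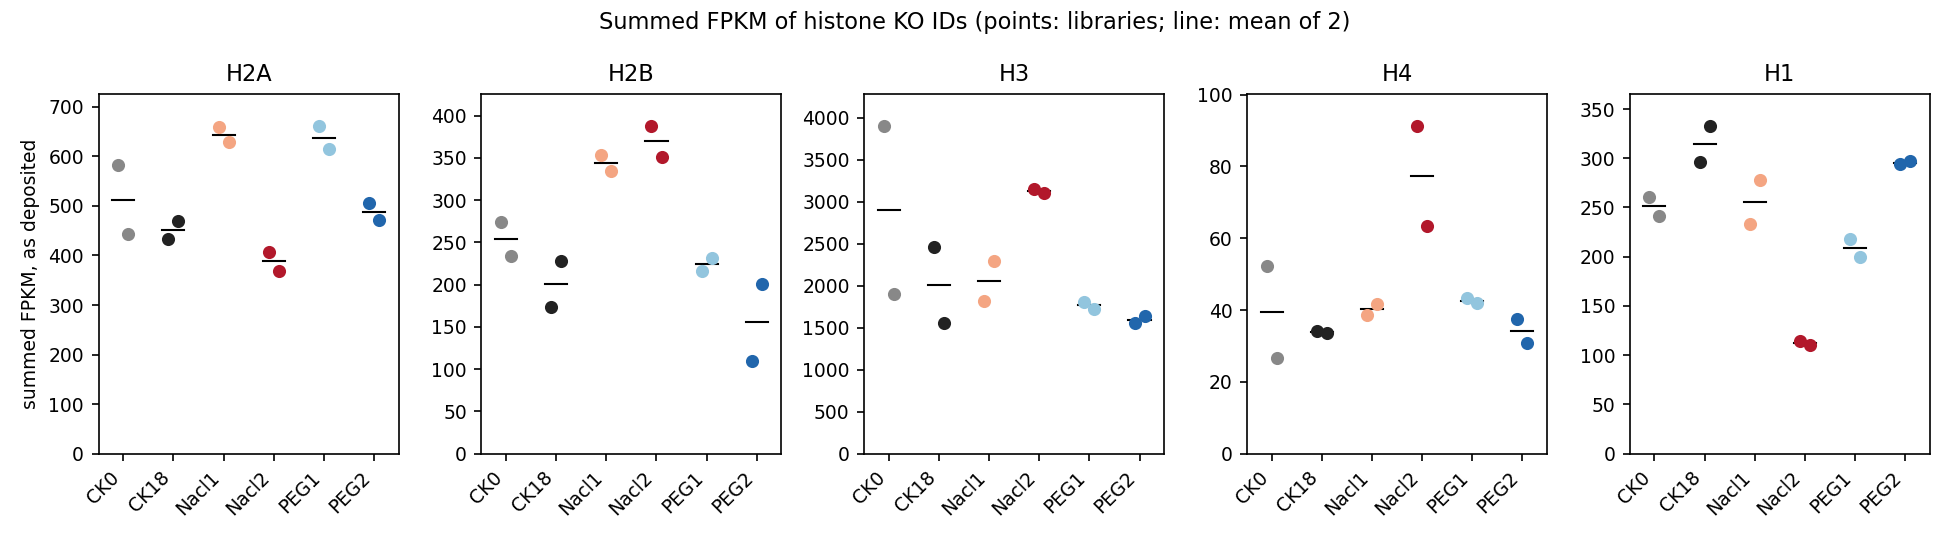
Summed FPKM, as deposited, of all unigenes with the KO ID of each histone (y axes, each from 0) in the 6 groups (x axes); points are libraries and lines the mean of 2. H1 was lowest in Nacl2 (115 and 110.3), whereas H2B, H3 and H4 of Nacl2 lay above CK18 on this scale, which is not corrected for the shift of the median KO sum by 0.92.

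H2A was the other histone sum called in Nacl2 vs CK18. Its summed FPKM were 434 and 469.9 in CK18, 659 and 629 in Nacl1, and 407 and 369 in Nacl2. In deposited FPKM, Nacl1 was thus above both other groups and Nacl2 below both, without overlap. The position of Nacl1 turned with the scale. Nacl1 vs CK18 stood at -0.19 relative to the typical KO sum, 0.001 with the factors of the unigenes and 0.51 in deposited FPKM, none called. Relative to the typical KO sum, H2A fell by 1.19 in Nacl2 vs CK18 (SE 0.11, adjusted p = 6.26e-05), which was -0.46 with the factors of the unigenes and -0.22 in deposited FPKM, not called in either. It was -0.998 in Nacl2 vs Nacl1 (SE 0.11, adjusted p = 0.000385), just short of the fold threshold, and passed it without Nacl1 replicate 1 or replicate 2. In PEG1 the sums were 661 and 615 and in PEG2 505 and 471. The log2 fold changes against CK18 were -0.11 (PEG1) and 0.05 (PEG2), neither called. In CK0 the sums were 581.9 and 444, which overlapped CK18, and CK18 vs CK0 stood at 0.77 (adjusted p = 0.0142), under the fold threshold, and at -0.17 in deposited FPKM.

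H2B, which pairs with H2A in the nucleosome, did not follow it. The H2B sums were 173 and 228 in CK18, 354 and 335 in Nacl1, and 387 and 352 in Nacl2. Both salt groups lay above CK18 in deposited FPKM. Relative to the typical KO sum, H2B stood at 0.09 in Nacl1 vs CK18 and at -0.08 in Nacl2 vs CK18, and at 0.79 and 0.89 in deposited FPKM, so its direction at high salt turned with the scale. In the PEG groups the sums were 216 and 232 (PEG1) and 109.7 and 201 (PEG2). The 2 libraries of PEG2 were far apart, 1 below and 1 within the range of CK18. The CK0 sums were 274 and 233, above CK18, and CK18 vs CK0 stood at 0.60 after scaling and -0.35 as deposited. No comparison called H2B on either scale.

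H3 had the highest summed FPKM of the 5 histones in every library, but the replicates of both control groups were far apart. Its sums were 3898 and 1901 in CK0 and 2454 and 1558 in CK18. In Nacl1 they were 1819 and 2298, and in Nacl2 3152 and 3100.3. Nacl2 was above CK18 and Nacl1, and within the range of CK0. The log2 fold change of Nacl2 vs CK18 was -0.29 relative to the typical KO sum (SE 0.21, adjusted p = 0.252) and 0.68 in deposited FPKM. In PEG1 the sums were 1809 and 1725 and in PEG2 1559 and 1634. PEG1 vs CK18 stood at -0.76 (SE 0.23, adjusted p = 0.0472), under the fold threshold, and passed it without CK18 replicate 2, which made it -1.10. Cluster-31803.51746 held 88.0% to 92.7% of the H3 sum. This unigene is only 317 bp long, with a best SwissProt hit to the variant H3.3 of the grass *Lolium* and a best NR hit to the centromeric CSE4 of *Setaria*, and weighted by length its share was still 65.9% to 75.3%. The H3 sum without it was 182 and 181 in CK18 and 347 and 228 in Nacl2, and the log2 fold change was -0.34 in place of -0.29.

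H4 was the least abundant core histone. Its sums were 34.2 and 33.5 in CK18, 38.8 and 41.6 in Nacl1, and 91.2 and 63.5 in Nacl2. Both Nacl2 libraries were above the other 10. In deposited FPKM, H4 was called higher in Nacl2 vs CK18 (log2 fold change 1.17, SE 0.19, adjusted p = 0.000972), but relative to the typical KO sum it stood at 0.20 (SE 0.17, adjusted p = 0.336). Without 14 core histone members described further on, whose best SwissProt hit is a fungus, it stood at -0.11. In Nacl2 vs Nacl1, H4 stood at 0.65 and was called higher with the factors of the unigenes alone (1.19, adjusted p = 0.00078). The sums of the other groups were 52.3 and 26.6 in CK0, 43.3 and 41.9 in PEG1, and 37.6 and 30.7 in PEG2. CK18 vs CK0 stood at 0.80 after scaling (adjusted p = 0.027) and passed the fold threshold without CK0 replicate 1, at 1.095, while in deposited FPKM it was -0.14.

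The calls counted here are those relative to the typical KO sum. Among the 5 histone sums, H1 and H2A were called lower and none higher in Nacl2 vs CK18. In that comparison 22% of all KO sums were called lower and 25.4% higher. Deposited FPKM instead gave H1 lower and H4 higher (1.17), with H2A not called (-0.22). For Nacl1 vs CK18, H1 alone was called, lower (8.63% of all KO sums lower, 10.7% higher). The same was true of Nacl2 vs Nacl1 (16.1% lower, 19.5% higher) and for PEG1 vs CK18 (12.1% lower, 10.6% higher). H1 alone was called, higher, in PEG2 vs PEG1 (8.23% of all KO sums higher, 4.83% lower) and in CK18 vs CK0 (25.7% higher, 24.9% lower). PEG2 vs CK18 called none of the 5 (0.486% higher and 0.746% lower among all KO sums), and none had an unadjusted p under 0.05 in limma.

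Ratios between histones within a library do not depend on the scale. The log2 ratio of the H2B to the H2A sum was -0.07 in both Nacl2 libraries. It lay between -2.20 and -0.90 in the other 10 libraries. Nearly equal FPKM of H2A and H2B were thus seen in Nacl2 alone, and in all other libraries H2A was the higher. The log2 ratio of H1 to H2A was -0.55 and -0.50 in CK18, and no other library was as high. It was -1.50 and -1.18 in Nacl1, -1.83 and -1.74 in Nacl2, and -1.60 and -1.62 in PEG1. PEG2 was close to CK18, at -0.78 and -0.66, and CK0 lay between, at -1.16 and -0.88. The log2 ratio of H1 to H2B fell the same way with salt, from 0.78 and 0.54 in CK18 through -0.60 and -0.27 in Nacl1 to -1.76 and -1.67 in Nacl2. With 2 libraries against 2, an exact permutation test cannot give a two-sided p below 0.333, so these ratios are given as values.

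**Figure D2:**
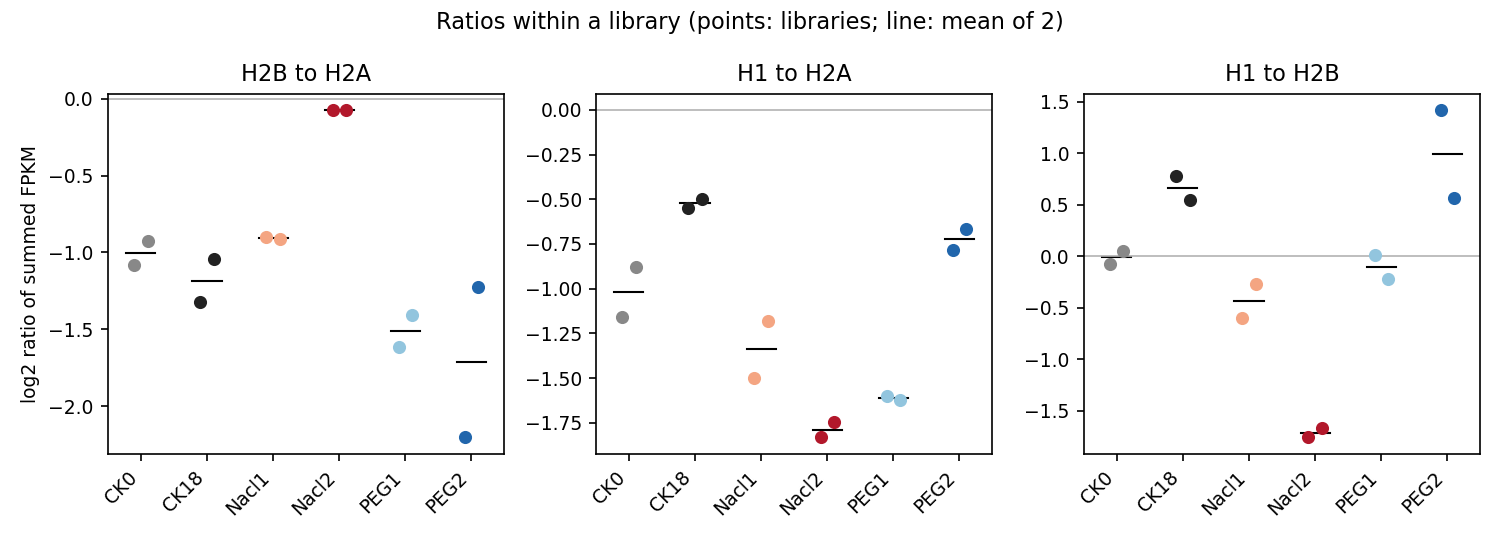
Log2 ratio of summed FPKM (y axes) of H2B to H2A, H1 to H2A and H1 to H2B in the 6 groups (x axes); points are libraries, thick lines the mean of 2 and the grey line equal sums. Nacl2 stood alone near equality for H2B to H2A (-0.07), and both ratios of H1 were lowest in Nacl2.

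Single unigenes showed that members of 1 histone moved in different directions. With the limma fit over all unigenes and the same thresholds, 66 members were tested in the salt comparisons, 2 of which passed the filter on low values only through Nacl2. In Nacl2 vs CK18, 12 members were called higher and 7 lower, where 22.4% of all unigenes tested were called higher and 12.9% lower. Of these 19, 2 had passed the filter through Nacl2 alone, so nothing is read from their number. The 17 others were 10 higher and 7 lower. The H2A unigene with the highest mean, Cluster-31803.47922, has a best SwissProt hit to a probable H2A variant of rice. Its FPKM were 173 and 236 in CK18, 288 and 265 in Nacl1, and 223 and 189.5 in Nacl2. The ranges of Nacl2 and CK18 overlapped, and its log2 fold change was -0.21 (adjusted p = 0.384). By contrast Cluster-31803.44411, annotated as H2A.1, had 121 and 94.9 FPKM in CK18, 94.9 and 72.0 in Nacl1 and 29.9 and 25.8 in Nacl2. It fell by 2.18 in Nacl2 vs CK18 (SE 0.21, adjusted p = 0.00287). It does not carry the PFAM core histone domain. Cluster-31803.83440, with the same SwissProt and NR hits and with the domain, went the other way in deposited FPKM. It had 2.44 and 2.49 in CK18 and 5.39 and 6.84 in Nacl2. Cluster-31803.77964, with a hit to H2A-III of *Volvox*, was highest in Nacl1, at 189 and 188, and had 83.1 and 69.5 in Nacl2. It fell by 1.04 in Nacl2 vs Nacl1 (SE 0.14, adjusted p = 0.011), a call lost without any 1 of the 4 libraries. The H2A unigene Cluster-31803.40454 was listed at 0 in both Nacl2 libraries and had 9.14 and 5.66 FPKM in CK18. Another H2A unigene, Cluster-31803.50351, has the same NR and SwissProt hits and nearly the same length (4349 against 4338 bp), and had 3.90 and 2.99 in CK18 and 4.96 and 4.94 in Nacl2. The sum of both was 13.04 and 8.65 in CK18, 6.58 and 5.10 in Nacl1, and 4.96 and 4.94 in Nacl2, so the pair together was lower in Nacl2 than in CK18 without being lost. Whether reads were divided between them was not tested.

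Of the 2 abundant H2B unigenes, 1 was called higher in Nacl2 vs CK18. Cluster-31803.95324 had 75.0 and 92.1 FPKM in CK18, 174 and 171 in Nacl1, and 235 and 197 in Nacl2. Both salt groups lay above CK18 without overlap, and it rose by 1.13 in Nacl2 vs CK18 (SE 0.15, adjusted p = 0.00516), a call lost without CK18 replicate 1. Cluster-31803.68119 had 91.1 and 123 in CK18, 170 and 155 in Nacl1, and 129 and 130.2 in Nacl2. Its deposited FPKM were also above CK18 in both salt groups without overlap, and its log2 fold change in Nacl2 vs CK18 was 0.05 after scaling. The less abundant Cluster-31803.61405 had 2.19 and 2.39 FPKM in CK18, 3.18 and 2.84 in Nacl1, and 8.36 and 8.49 in Nacl2. It rose by 1.61 in Nacl2 vs CK18 (SE 0.27, adjusted p = 0.0101), a call lost without either Nacl2 library. In CK0 it had been higher still, at 29.7 and 23.3 FPKM.

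Among H3 unigenes, Cluster-31803.69981 rose by 2.41 in Nacl2 vs CK18 (SE 0.37, adjusted p = 0.00762), from 6.38 and 3.32 FPKM to 28.5 and 30.0, while Nacl1 was between, at 15.1 and 15.2. That call was lost without Nacl2 replicate 2. The more abundant H3 unigene Cluster-31803.51746 stood at 0.44 (adjusted p = 0.305), as did the H3 sum with the same factors (0.44), against -0.29 for the sum relative to the typical KO sum. For H4, Cluster-31803.80256 had 12.1 and 14.6 FPKM in CK18, 16.2 and 18.3 in Nacl1, and 30.4 and 30.2 in Nacl2. It was called higher in Nacl2 vs Nacl1 (log2 fold change 1.08, SE 0.20, adjusted p = 0.0219), a call that leaving out any 1 of 5 libraries removed, and stood at 0.95 in Nacl2 vs CK18. The other abundant H4 unigene, Cluster-31803.103384, had 15.6 and 14.99 in CK18 and 12.6 and 9.49 in Nacl2. The share of the H4 sum in Cluster-31803.103384 was 13.8% and 14.9% in the Nacl2 libraries and 35.8% to 59.5% in the other 10. Cluster-31803.94326, also H4, was the 1 member called in Nacl1 vs CK18 (4.46% of all unigenes were called higher and 4.56% lower), with 0.54 and 0.57 FPKM in CK18, 2.98 and 3.68 in Nacl1 and 3.50 and 3.55 in Nacl2. Its log2 fold change was 1.91 in Nacl1 vs CK18 (SE 0.36, adjusted p = 0.0373), and leaving out any 1 of the 6 libraries of this fit removed the call, although without CK18 replicate 2 another member was called. In Nacl2 vs CK18 it was 2.26 (adjusted p = 0.00834), lost without Nacl2 replicate 2. In Nacl2 vs Nacl1, 9 members were called higher and 5 lower (14.6% and 7.94% of all unigenes). Of these 14, 2 had passed the filter through Nacl2 alone, so nothing is read from their number. The 12 others were 7 higher and 5 lower. Far fewer members were called without 1 of the Nacl1 or Nacl2 libraries.

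**Figure D3:**
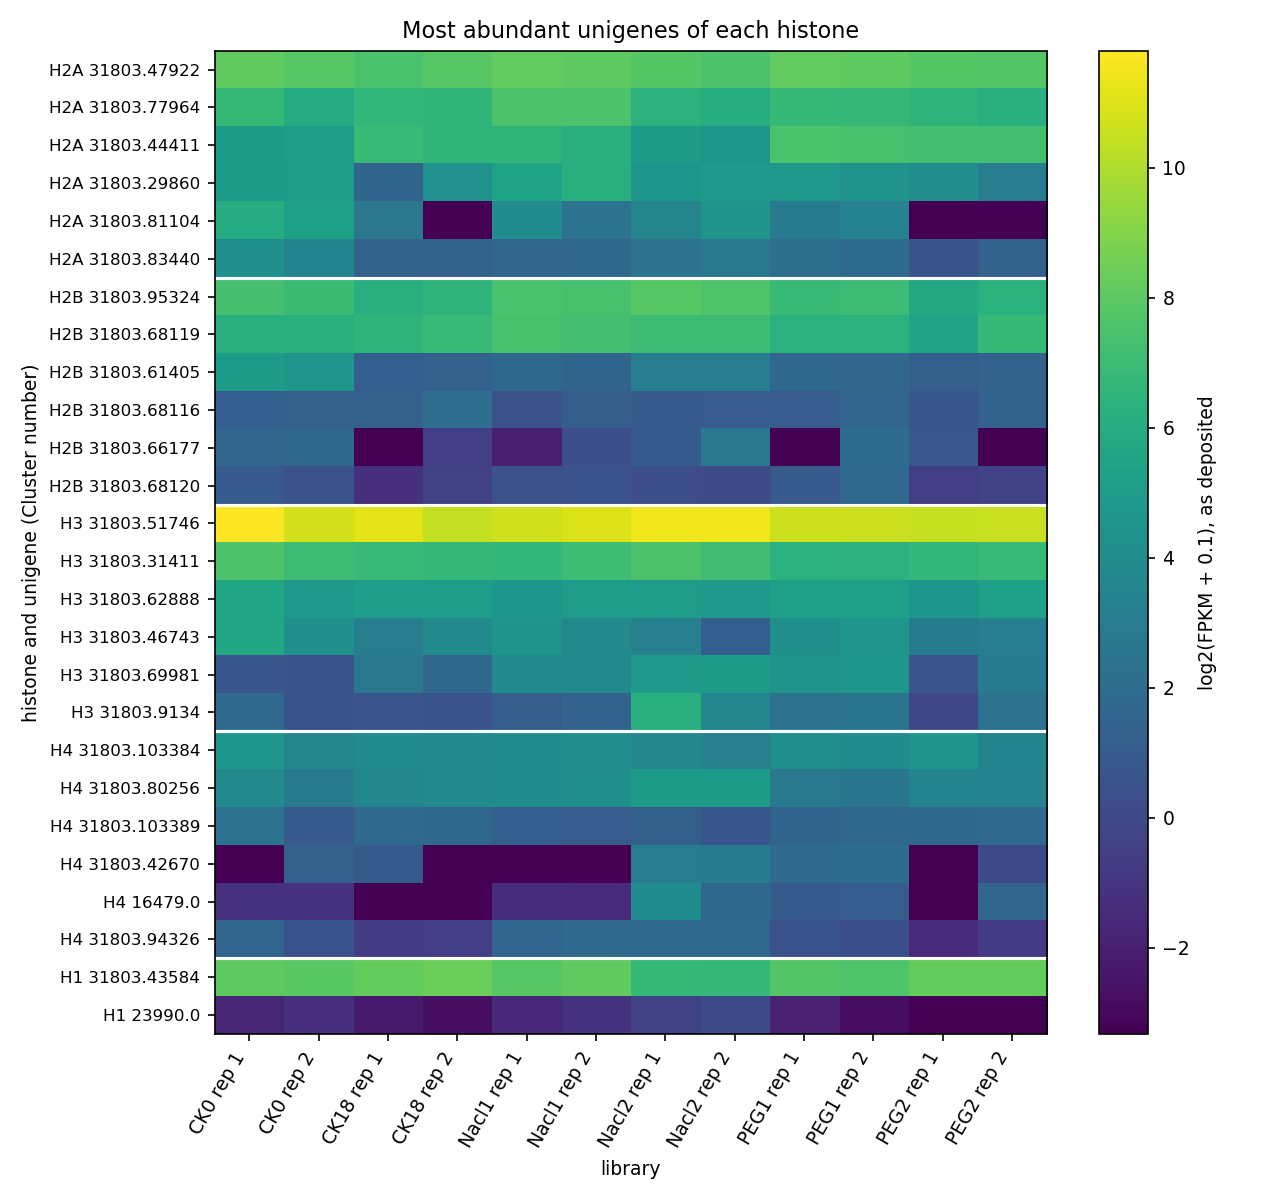
FPKM as deposited, as log2(FPKM + 0.1), of the up to 6 unigenes with the highest mean of each histone (rows, Cluster numbers) in the 12 libraries (columns); white lines separate H2A, H2B, H3, H4 and H1, and the darkest cells are listed at 0. The H3 unigene Cluster-31803.51746 was the brightest row in every library. Rows of 1 histone differed in direction, such as H2A Cluster-31803.44411 (lower in Nacl2 than in CK18) and H2A Cluster-31803.83440 (higher).

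Unigenes with a best SwissProt hit to a fungus and no green algal NR hit made up 14 members (4 H2A, 3 H2B, 4 H3 and 3 H4). Their summed FPKM were 114.8 and 22.4 in Nacl2. The sums were 2.20 and 2.52 in CK18 and 4.72 and 3.34 in Nacl1. The other groups had 7.69 and 2.74 (CK0), 13.9 and 11.7 (PEG1), and 1.78 and 10.7 (PEG2). The 2 libraries of Nacl2 thus differed widely, and 8 of the 14 had their highest FPKM in Nacl2 replicate 1. The H3 unigene Cluster-31803.9134 led this set, with 70.7 and 12.0 FPKM in Nacl2 against 1.47 and 1.35 in CK18 (log2 fold change 4.05, adjusted p = 0.0155), a call lost without either CK18 library. The H4 unigene Cluster-16479.0 had 16.2 and 3.42 in Nacl2 and was listed at 0 in both CK18 libraries. Of the 12 members called higher in Nacl2 vs CK18, 3 belonged to this set. Whether they came from another organism in the culture was not tested. The H1 and H2A differences in Nacl2 vs CK18 stood at -2.45 and -1.21 without these members.

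A further set of histone unigenes was picked for being above 0 in PEG1 and listed at 0 elsewhere. It held 12 members (4 H2A, 2 H2B, 4 H3 and 2 H4), which had FPKM above 0 in both PEG1 libraries and in none of the other 10. They were 10.5% of the members, against 3.64% of all unigenes with the same pattern. Their FPKM lay between 0.56 and 7.26, and their sum was 46.3 in PEG1 replicate 1 and 22.03 in replicate 2. Only 3 had a green algal NR hit, against 63 of all 114 members, and 10 were higher in replicate 1 than in replicate 2. Clusters other than Cluster-31803 held 9 of the 12, whereas Cluster-31803 held 82 of the 114 members. Whether these unigenes came from another organism in the culture was not tested. Of the 72 members tested in the PEG comparisons, 17 passed the filter on low values through 1 group alone. In PEG1 vs CK18, 13 members were called higher and 4 lower, where 9.49% of all unigenes were called higher and 4.69% lower. Of these 17, 13 had passed the filter through 1 group alone, where they were high, so nothing is read from their number, and 4 others were called, 1 higher and 3 lower. In deposited FPKM 16 were called higher and 2 lower. All 12 of the unigenes above 0 in PEG1 alone were among the 13 called higher, which their selection favoured. The remaining member called higher, the H3 unigene Cluster-31803.71647, had 3.24 and 4 FPKM in PEG1 and at most 0.32 in CK18. Without any 1 of the CK18 or PEG1 libraries, 0 of the 17 members were called.

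The members lower in PEG1 included abundant ones. The main H1 unigene, Cluster-31803.43584, fell by 1.11 in PEG1 vs CK18 (SE 0.18, adjusted p = 0.0248), from 296 and 332 FPKM to 218 and 199. The H4 unigene Cluster-31803.80256 fell by 1.61 (SE 0.28, adjusted p = 0.0277), from 12.1 and 14.6 FPKM to 6.54 and 5.83. In PEG2 it had 11.2 and 10.3 FPKM. In PEG2 vs PEG1, 14 members were called lower and 2 higher (5.96% and 1.93% of all unigenes), and 12 of the 14 were the unigenes above 0 in PEG1 alone; leaving out any 1 library removed all of these calls. Of the 16, 14 had passed the filter through 1 group alone, and nothing is read from their number. The other 2 were the pair of alike H2A unigenes. Cluster-31803.50351, called higher, was listed at 0 in CK0 and PEG1 and had 5.45 and 7.11 FPKM in PEG2, while Cluster-31803.40454, called lower, had 8.69 and 6.27 in PEG1 and 0.02 and 0 in PEG2. The sum of both was 8.69 and 6.27 in PEG1 and 5.47 and 7.11 in PEG2, and the groups overlapped. PEG2 vs CK18 called 0 of 72 members (0% of all unigenes), and 7 had an unadjusted p under 0.05 in limma.

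**Figure D4:**
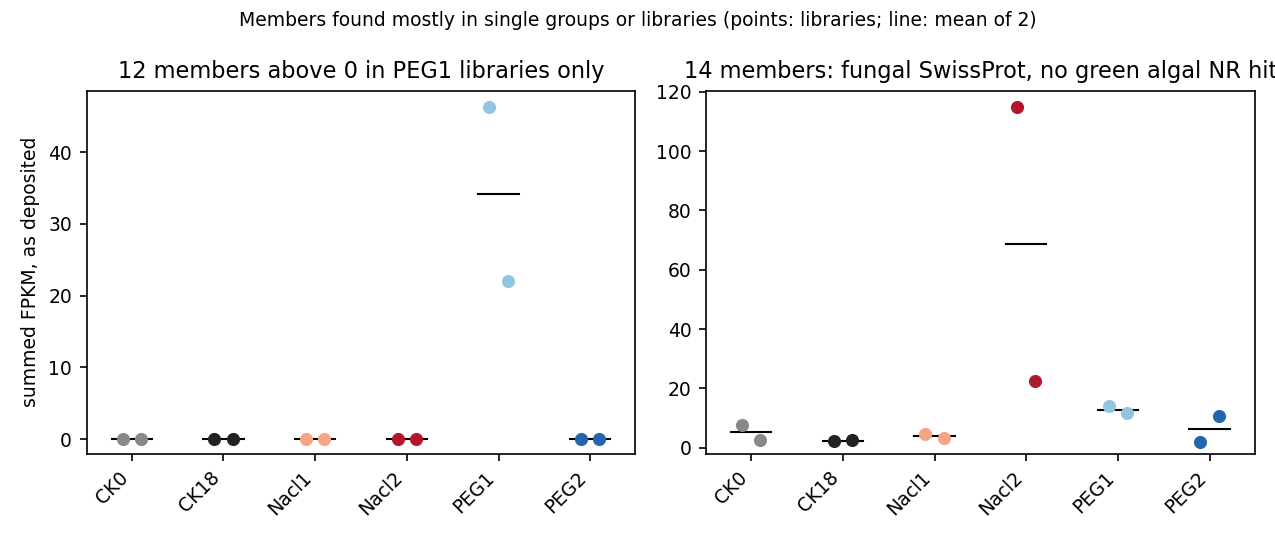
Summed FPKM, as deposited (y axes), of the 12 members above 0 in PEG1 libraries only (left) and of the 14 members with a fungal SwissProt hit and no green algal NR hit (right) in the 6 groups (x axes); points are libraries and lines the mean of 2. The left set was picked for being 0 outside PEG1, where it summed to 46.3 and 22.03. The right set was highest in Nacl2 replicate 1, at 114.8.

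With age, in CK18 vs CK0, 53 members were tested, 10 of which passed the filter on low values through 1 group alone. Of these, 8 were called higher and 5 lower, where 13.7% of all unigenes tested were called higher and 18.3% lower. In deposited FPKM 4 were called higher and 6 lower. Of the 13 called after scaling, 6 had passed the filter through 1 group alone, and 7 others were called, 5 higher and 2 lower. The median of all unigenes was -0.41 and that of the members 0.26. The H2A unigene Cluster-31803.44411 rose by 2.55 (SE 0.32, adjusted p = 0.0141), from 30.3 and 34.7 FPKM in CK0. It stayed high in PEG1, at 181 and 166, and in PEG2, at 152 and 149.9. Other members were most abundant at day 0. The H2B unigene Cluster-31803.61405 fell by 2.65 (SE 0.29, adjusted p = 0.0141), and the H2A unigene Cluster-31803.83440 fell by 1.72 (SE 0.35, adjusted p = 0.0311), from 19.5 and 11.3 FPKM to 2.44 and 2.49. Without CK18 replicate 1, 1 member was called with age in place of 13, and 5 to 8 were called without each of the other 3 libraries.

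Across controls and high salt, 12 members with a mean FPKM of at least 1 had both CK0 and both Nacl2 libraries above both CK18 libraries (10.5% of members, 7.52% of all unigenes, deposited FPKM), and 6 had both below (5.26% of members, 4.27% of all unigenes). These shares are close to those of all unigenes. The first set held 5 H2A, 4 H2B, 1 H3 and 2 H4 unigenes, among them Cluster-31803.95324 and Cluster-31803.61405. The second held Cluster-31803.44411 and the main H1 unigene.

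Most KO sums of the proteins that load histones onto DNA were higher in Nacl2 than in CK18. Of 9 KO sums of nucleosome assembly factors and histone chaperones tested, 6 rose and 0 fell in Nacl2 vs CK18, with a median log2 fold change of 2.11 against -0.03 for all KO sums, of which 25.4% were called higher and 22% lower. In deposited FPKM 8 rose and 0 fell. CHAF1B, a subunit of chromatin assembly factor 1, which deposits H3 and H4 behind the replication fork, had 0.12 and 0.19 summed FPKM in CK18 and 13.4 and 10.3 in Nacl2. It rose by 4.79 (SE 0.39, adjusted p = 3.90e-05). CHAF1A of the same complex rose by 3.0 (SE 0.34), and NASP, which holds soluble H3 and H4, rose by 3.003 (SE 0.38). ASF1, which hands H3 and H4 to the assembly factors, had 1.12 and 2.43 FPKM in CK18, 9.54 and 7.38 in Nacl1 and 26.0 and 23.1 in Nacl2. SSRP1, a subunit of the FACT complex, and HIRA, which deposits H3.3 outside replication, rose by 2.03 and 2.11. NAP1L1 (0.44), SUPT6H (0.77) and RBBP4 (-0.74) were not called. CK0 was also above CK18 in these sums: 6 of the 9 fell and 0 rose in CK18 vs CK0, with a median of -2.80, and CHAF1B had 6.07 and 4.80 FPKM in CK0. In Nacl1 vs CK18, 3 rose (ASF1, CHAF1A and CHAF1B) and 0 fell, and 6 rose and 0 fell in deposited FPKM. In PEG1 vs CK18, ASF1 alone rose of 8 tested, and in PEG2 vs CK18 none was called.

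Genes of DNA replication were also higher in CK0 and Nacl2 than in CK18. Of 22 KO sums tested, 15 rose and 1 fell in Nacl2 vs CK18 (median 2.10), and 3 rose and 16 fell in CK18 vs CK0 (median -1.99). The shares of all KO sums called higher and lower were 25.4% and 22% in the first comparison and 25.7% and 24.9% in the second. In deposited FPKM 17 rose and 0 fell in the first comparison, and 0 rose and 18 fell in the second. The sliding clamp PCNA had 52.5 and 27.0 FPKM in CK0, 2.37 and 3.93 in CK18, 12.8 and 13.6 in Nacl1, and 91.1 and 75.6 in Nacl2. PCNA rose by 3.76 in Nacl2 vs CK18 (SE 0.26, adjusted p = 2.16e-05), and MCM6 of the replicative helicase rose by 4.33 (SE 0.30). The 1 sum of this list that fell in Nacl2 vs CK18 is POLR1A, the large subunit of RNA polymerase I, which entered the list through the shared alias RPA1 and is not a replication gene. In Nacl1 vs CK18, 5 rose and 0 fell, against 15 and 0 in deposited FPKM. In PEG1 vs CK18, 3 rose and 4 fell of 21 tested, with MCM5 at -3.84 and MCM7 at 1.94, and 5 rose and 1 fell in deposited FPKM. In PEG2 vs CK18, 0 rose and 1 fell. In the same comparison of Nacl2 with CK18, the 4 core histone sums lay between -1.19 and 0.20 relative to the typical KO sum. In deposited FPKM they lay between -0.22 and 1.17, and H4 was called higher. These sums do not separate variants from other members. A unigene with a best SwissProt hit to H3.3 held 88.0% to 92.7% of the H3 sum. For H2A, a unigene with a hit to a probable variant held 39.8% to 54.7%. Whether members without such hits rose with the replication genes was not tested as a set.

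**Figure D5:**
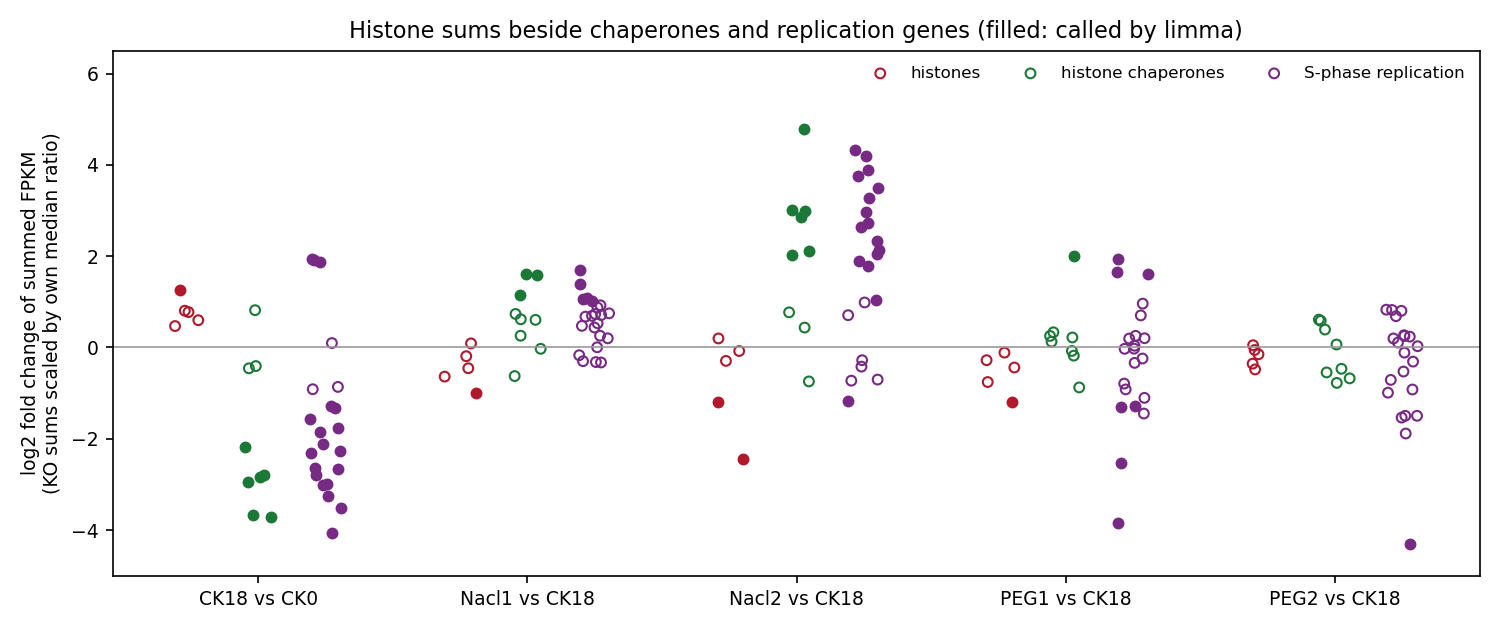
Log2 fold change of KO sums relative to the typical KO sum (y axis) in 5 comparisons (x axis) for the 5 histones (red), the histone chaperones (green) and the replication list (purple); each point is a KO sum, and filled points were called by limma. In Nacl2 vs CK18 the chaperones had a median of 2.11 and the core histones lay between -1.19 and 0.20.

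The counts for the enzymes that exchange or mark histones are to be read against the same shares of all KO sums. These were 25.4% higher and 22% lower in Nacl2 vs CK18, and 25.7% and 24.9% in CK18 vs CK0. Of 6 KO sums for the exchange of H2A.Z, 4 rose and 0 fell in Nacl2 vs CK18, YEATS4 the most (2.02, SE 0.20), and 3 fell and 0 rose in CK18 vs CK0. In deposited FPKM all 6 rose in the first comparison and fell in the second. Of 9 sums for histone acetylation and deacetylation, 1 rose and 3 fell in Nacl2 vs CK18; in deposited FPKM 4 rose and 1 fell. The deacetylase HDAC11 had 58.2 and 38.2 FPKM in CK18 and 3.61 and 2.26 in Nacl2, and fell by 4.95 (SE 0.35). Of 13 sums for histone methylation and demethylation, 6 rose and 3 fell in Nacl2 vs CK18, and 2 rose and 7 fell in CK18 vs CK0. In deposited FPKM these were 6 and 0, and 0 and 9. EZH2, the H3 lysine methyltransferase of Polycomb repressive complexes, had 87.6 and 31.7 FPKM in CK0, 0.28 and 0.40 in CK18, and 19.3 and 15.8 in Nacl2. EZH2 rose by 4.48 in Nacl2 vs CK18 (SE 0.33) and fell by 6.07 in CK18 vs CK0 (SE 0.42). Its partner EED rose by 3.90 in Nacl2 vs CK18. At the lower salt dose, against CK18, acetylation enzymes had 1 sum that rose and 0 that fell, methylation enzymes 2 and 0, and H2A.Z exchange 0 and 0, which became 2 and 0, 9 and 0, and 2 and 0 in deposited FPKM. In PEG1 vs CK18, these counts were 1 and 1, 0 and 1, and 1 and 0, or 2 and 1, 4 and 1, and 2 and 0 in deposited FPKM, and PEG2 vs CK18 called none of the 3 lists.

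The profile of the summed core histones over the 12 libraries was compared with 2239 other KO sums of mean FPKM of at least 10, by the root mean square difference of centred log2 values. The closest were UBE2D_E, a ubiquitin-conjugating enzyme (0.154), SFRS7, a splicing factor (0.155), FAM32A (0.160), CCT6, a subunit of the chaperonin that folds actin and tubulin (0.189), and NDUFS7, a subunit of respiratory complex I (0.192). The median of all candidates was 0.675. H3 made up 63.4% to 81.1% of the core sum, which was 4807 and 2605 in CK0. The SFRS7 sum was 183 and 92.3 in the same libraries, so both had a wide gap between the replicates of CK0. Without the H3 unigene Cluster-31803.51746, the core sum was 1251 and 895 in CK0. The compared profile was thus largely that of 1 short unigene, and the likeness without it was not computed.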

How the data were processed

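The 12 libraries were sequenced as Illumina RNA-seq. The authors assembled the reads with Trinity, clustered transcripts into unigenes with Corset, mapped reads by Bowtie 2, used RSEM for counting, and deposited FPKM values with 2 decimals, beside an annotation table with the length of each unigene in bp. RSEM divides reads between near-identical sequences, so single histone unigenes are uncertain where copies are alike. The study names mRNA as the material sequenced, and how it was selected from total RNA is not given in the sources used here. Read counts were not used here, so the depth behind a value is unknown. Without a reference genome, no sequences or positions are given.

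Histone members were found by KO ID, and their FPKM were also summed by KO ID. Tests were run in R 4.3.3 with the limma package, version 3.58.1, and data.table, version 1.17.8. Before each test, libraries were scaled by a size factor (the median ratio to the geometric mean of the libraries tested), computed for unigenes and for KO sums separately, and log2(FPKM + 0.1) was taken, which understates folds of low values. Rows with at least 0.3 FPKM in at least 2 libraries were tested, two-sided, with an intensity trend and Benjamini-Hochberg adjustment over all rows tested. The salt groups with CK18 formed 1 fit, the PEG groups with CK18 another (3 residual degrees of freedom each), and both controls another (2). The fit was checked on simulated data with known changes: it returned the simulated fold changes and made no calls where nothing was changed, called most of the changed unigenes where many were changed, and called none where few were, so that a missed call says little. Unigenes named are the 6 with the highest mean FPKM of each KO ID, and others singled out were chosen after their values were seen. The members and lists were chosen with earlier results of these data known. Alternatives were a pseudocount of 1, no filter, FPKM as deposited, the factors of the unigenes for KO sums, all 12 libraries in 1 fit, a replicate block, members chosen by SwissProt description, and leaving out each library.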

Additional observations from a re-analysis of the deposited data

Results flagged for a closer look

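The difference between the higher and the lower dose was itself compared between NaCl and PEG, in 1 limma fit of all 12 libraries, a test chosen after seeing the data. Of all 3205 KO sums, 40.2% were called in this test. H1 and H2A passed it. For H1 the dose difference was -1.53 with NaCl (Nacl2 against Nacl1) and 1.02 with PEG (PEG2 against PEG1), so that NaCl and PEG differed by -2.54 on the log2 scale (SE 0.24, adjusted p = 7.96e-05), and by -1.68 in deposited FPKM (adjusted p = 0.000299). For H2A the dose difference was -1.08 with NaCl and 0.13 with PEG, a difference of -1.21 (SE 0.18, adjusted p = 0.000757), which was -0.34 and not called in deposited FPKM (adjusted p = 0.238). H2B (-0.17), H3 (-0.11) and H4 (0.38) were not called, although H4 was called in deposited FPKM (1.24, adjusted p = 0.0322).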

How the results depend on the processing

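The counts of KO sums called among the 5 histones changed mainly with the scale. In deposited FPKM, 0 were called in Nacl1 vs CK18, PEG1 vs CK18, PEG2 vs PEG1 and CK18 vs CK0, each 1 in the main result. The count in Nacl2 vs CK18 stayed at 2, but with H4, higher, in place of H2A, lower. With the factors of the unigenes, Nacl2 vs CK18 had 1 in place of 2, PEG2 vs PEG1 and Nacl1 vs CK18 had 0, and the 1 in Nacl2 vs Nacl1 was H4, higher (1.19), in place of H1, lower (-0.91). With all 12 libraries in 1 fit, 2 were called in Nacl2 vs Nacl1 and 0 in Nacl1 vs CK18, and without the members with a fungal hit 2 in Nacl2 vs Nacl1. Leaving out each library gave 2 in Nacl2 vs CK18, 1 to 2 in Nacl2 vs Nacl1 and CK18 vs CK0, 0 to 2 in PEG1 vs CK18, 0 to 1 in Nacl1 vs CK18 and PEG2 vs PEG1, and 0 in PEG2 vs CK18. No histone sum and no named unigene reversed its direction past the threshold.

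For unigenes, a pseudocount of 1 gave 10 calls in place of 17 in PEG1 vs CK18 and 0 in place of 16 in PEG2 vs PEG1. Without the filter, counts were 0 (Nacl1 vs CK18), 2 (PEG1 vs CK18), 0 (PEG2 vs PEG1) and 5 in place of 13 (CK18 vs CK0). In deposited FPKM, 4 were called in Nacl1 vs CK18, and with all 12 libraries 2 in PEG2 vs CK18. Members chosen by SwissProt description (167 unigenes) gave 3 in Nacl1 vs CK18 and 24 in CK18 vs CK0. Leaving out each library gave 11 to 17 in place of 19 in Nacl2 vs CK18, 1 to 13 in place of 14 in Nacl2 vs Nacl1, 0 to 1 in Nacl1 vs CK18, 0 to 18 in PEG1 vs CK18, 1 to 8 in CK18 vs CK0, and 0 in PEG2 vs CK18 and PEG2 vs PEG1.

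The replicate numbers are shared by all groups but do not pair libraries: deviations of same-numbered libraries correlated at -0.0409 to 0.0915 over 15 pairs of groups. With a replicate block, 0 unigenes were called in Nacl1 vs CK18, PEG1 vs CK18 and PEG2 vs PEG1, and 17 in Nacl2 vs CK18, 14 in Nacl2 vs Nacl1 and 14 in CK18 vs CK0. The block did not change the count of histone sums in any comparison. The cause of these changes was not tested. With 2 libraries a group, small differences between histones cannot be resolved.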
